A study of Mus musculus with 22 samples.

Results

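The transcripts of 8 genes of monoamine breakdown and descending control were followed in the spinal cord of mice with joint pain. These were both monoamine oxidases (Maoa and Maob), α2-adrenoceptors (Adra2a and Adra2c) and serotonin receptors (Htr2a, Htr2c, Htr5a and Htr7). They were found by symbol among the 17306 genes of the table, and all 8 were among the 16765 genes that passed the filter on low values. RNA was measured in L4-L6 spinal cord of 22 wild-type C57BL6J mice, aged 12 to 14 weeks at collection, and the methods describe the tissue as the dorsal quadrant on the side of the injected knee. Every mouse received 1 mg of monoiodoacetate (MIA) into the knee, where it blocks glycolysis and so harms the cartilage, and tissue was taken on day 30, so that no group without joint pain is included. Mice also received subcutaneous vesicular phospholipid gel (VPG), a slow-release carrier, either alone (Vehicle) or with 100 mg/kg of SAFit2, a selective inhibitor of FKBP51, a co-chaperone that lowers glucocorticoid receptor sensitivity. The gel was given on days -3 and 4 (Early, 5 SAFit2 and 6 Vehicle mice) or on days 20 and 27 (Late, 5 SAFit2 and 6 Vehicle mice). The sample labels instead give 3 and 4 as the early days, and SAFit1 stands in the titles of the Early SAFit2 libraries where their treatment label reads SAFit2. Early and Late are also given as the batch, so timing and batch cannot be told apart.

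Noradrenaline and serotonin reach the dorsal horn in axons that descend from the brainstem and adjust how strongly pain signals are passed on. Monoamine oxidase A breaks down mainly noradrenaline and serotonin, and monoamine oxidase B acts more on trace amines and is abundant in glia. The α2-adrenoceptors couple to inhibitory G proteins and mediate spinal analgesia by noradrenaline, while serotonin acts through receptors that either excite (Htr2a and Htr2c through Gq, Htr7 through Gs) or inhibit (Htr5a through Gi).

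Depth ranged from 11352989 to 24433349 reads on genes per library. The cell bodies that make noradrenaline and serotonin lie in the brainstem, and the 2 of their 5 markers that could be measured summed to 0.055 to 3.02 CPM (counts scaled to library size) over all groups. Transcripts of synthesis and storage were nonetheless present, with mean log2 CPM of 3.13 for Th, 3.91 for Ddc, 2.79 for Slc18a2 and -0.44 for Tph2. All 5 neuronal, 5 astrocyte and 4 lumbar Hox markers were detected. Summed neuronal markers were at 4220 to 4758 CPM in Late SAFit2 and 3338 to 4315 CPM in Late Vehicle libraries, summed astrocyte markers at 2158 to 2824 and 2356 to 2617 CPM. Single markers did not all follow these sums. Of each 5, 3 were higher with late SAFit2. At an adjusted p under 0.05 (limma) and 1.2-fold, 0 neuronal markers were higher and 1 lower, and 0 astrocyte markers differed. Summed motor neuron markers ranged from 4.69 to 188 CPM, and the 3 measured muscle markers summed to 106 and 77.8 CPM in Late SAFit2 replicates 3 and 5 against at most 4.72 CPM in every other library. Their part in the results was not tested. In bulk tissue, fewer cells of a type and less RNA per cell cannot be told apart.

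In the GRCm38 build (mm10), 3 of the 8 genes lie on the X chromosome. Maoa (Entrez 17161, chrX:16619698-16687818, plus strand) and Maob (Entrez 109731, chrX:16709282-16817366, minus strand) face each other tail to tail with 21463 bp between them. Htr2c (Entrez 15560) lies at chrX:146962513-147197277 on the plus strand. Adra2a (Entrez 11551, chr19:54044151-54048982) and Adra2c (Entrez 11553, chr5:35278319-35281763) lie on the plus strand, as do Htr2a (Entrez 15558, chr14:74640840-74709494) and Htr5a (Entrez 15563, chr5:27842149-27855088). Htr7 (Entrez 15566) lies at chr19:35958734-36057507 on the minus strand. The transcripts differ widely in base composition. GC content of the longest transcript was 40.4% for Maoa, 41.3% for Htr2a, 42.1% for Htr2c, 45.3% for Maob, 45.5% for Htr5a, 49.2% for Htr7, 58.6% for Adra2a and 65.5% for Adra2c, against a median of 49.7% over the genes tested. Adra2c stood at the 99.7th percentile and Maoa at the 7.03rd.

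RefSeq promoter windows (GRCm38.p6) were found for 7 of the 8 genes, all but Maob. The 250 bases before the start are shown for Maoa, the gene that passed the test in late mice, and for Htr2c, its X-linked neighbour in level (chrX:16619448-16619697 and chrX:146962263-146962512, both plus strand). Capitals mark GC boxes, searched as GGGCGG on both strands.
Maoa: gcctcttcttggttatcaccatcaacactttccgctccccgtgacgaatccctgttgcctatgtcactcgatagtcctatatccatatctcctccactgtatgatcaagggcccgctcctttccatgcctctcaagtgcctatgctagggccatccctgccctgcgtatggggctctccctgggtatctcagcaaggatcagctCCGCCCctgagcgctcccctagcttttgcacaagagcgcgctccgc
Htr2c: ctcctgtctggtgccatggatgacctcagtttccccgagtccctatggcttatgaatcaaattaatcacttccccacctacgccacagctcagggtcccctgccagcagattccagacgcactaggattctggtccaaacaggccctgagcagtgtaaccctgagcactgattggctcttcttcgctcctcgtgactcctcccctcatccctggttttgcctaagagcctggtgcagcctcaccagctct
The Maoa window held 1 GC box, a motif bound by factors of the Sp family, and the Htr2c window none. Over 32851 promoter windows of this length, 32.7% held at least 1. The glucocorticoid receptor half-site AGAACA, searched on both strands, was in neither window, and 16.1% of all windows held it. Among the 7 windows the half-site was found in that of Htr2a, and the GC box in those of Maoa, Htr2a and Adra2a. The windows of Htr2a, Htr7, Adra2a and Adra2c overlap exons annotated in GENCODE, and that of Adra2a lies wholly within the annotated gene. Their motifs can therefore lie in transcribed sequence. The windows were 56.8% (Maoa) and 55.6% (Htr2c) GC, against a median of 52.4%, so the low GC content of both transcripts was not shared by their promoters.

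Per transcript length, the order over 22 libraries began with Htr2c at 27.2 ± 5.14 CPM per kb (SD, n = 22), followed by Maoa (20.6 ± 4.29) and Maob (14.0 ± 2.86). Adra2a (9.16 ± 1.65) and Htr7 (8.91 ± 1.23) came next and did not differ beyond their spread, Adra2a being higher in 10 of 22 libraries. Adra2c (3.24 ± 1.04), Htr5a (1.72 ± 0.307) and Htr2a (0.909 ± 0.408) were lowest. The other neighbours in this order differed by more than the spread of their log2 difference, in the same direction in 20 to 22 of the 22 libraries. The order of the first 2 depended on the length used. With the union of exons, which is 9328 bp for Htr2c against 4883 bp for its longest transcript, Maoa was first and Htr2c second at 14.2 ± 2.69 CPM per kb, within its spread of Maob.

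**Figure D1:**
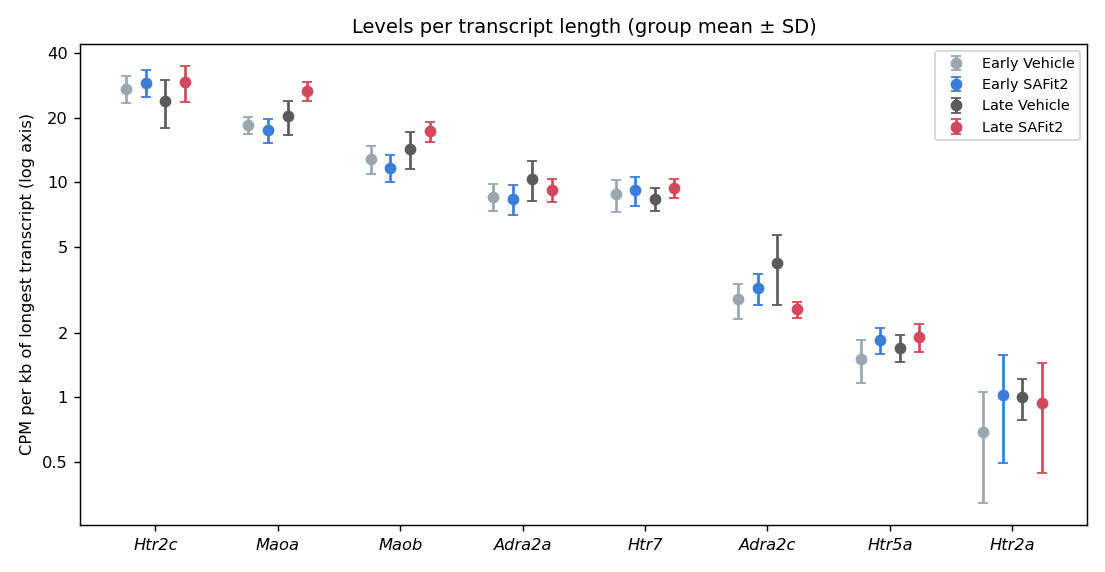
CPM per kb of longest transcript (log axis) for each gene in order of level, as mean ± SD of each of the 4 groups. The 8 genes span from 27.2 CPM per kb for Htr2c to 0.909 for Htr2a, and the groups of 1 gene lie much closer together than genes at opposite ends of the order.

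SAFit2 was compared with Vehicle within late mice, to ask how treatment of established joint pain altered these transcripts. Maoa was the 1 of 8 genes that passed the test (adjusted p under 0.05 and 1.2-fold), and it was higher with SAFit2. The same call was made for 12.1% of all genes tested (5.33% as higher). With Maob, Adra2c and Htr2c it was also among the 4 of 8 genes at a nominal p under 0.05 (limma), as were 34.5% of all genes. None of the 8 had groups that did not overlap, as 1.71% of all genes did. Median log2 fold change was 0.17 over the 8 genes and -0.05 over all genes tested, and 0.03 over the 8 genes and -0.04 over all genes with the GC and length trend of each library removed.

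Maoa was at 6.62, 6.85, 6.70, 7.0 and 6.78 log2 CPM in Late SAFit2 replicates 1 to 5. Late Vehicle libraries ranged from 6.21 to 6.83 with a median of 6.27. All 5 SAFit2 libraries were above the Vehicle mean and 2 of them above every Vehicle library, while Late Vehicle replicate 6 (6.83) sat among the SAFit2 libraries. The mean was 6.79 ± 0.15 (SD, n = 5) against 6.38 ± 0.24 (n = 6), a log2 fold change of 0.40 (SE 0.11, 95% CI 0.17 to 0.64, limma, adjusted p = 0.0346), or 1.32-fold. The two-sided exact permutation test over all 462 splits gave p = 0.0152, which after Benjamini-Hochberg adjustment over the 16 such tests of early and late mice was 0.242. The call depended on single libraries, as did the number of calls over all genes. It was lost without Late SAFit2 replicate 2, 4 or 5, or without Late Vehicle replicate 1, 3, 4 or 5 (adjusted p between 0.0648 and 0.103). In these 7 omissions its nominal p was 0.0028 to 0.0069 (limma). Only 1 to 8 of 16765 genes were then called, against 2021 with all libraries. Over all 22 omissions the log2 fold change stayed between 0.35 and 0.49.

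Maob was at 5.42, 5.17, 5.28, 5.57 and 5.45 log2 CPM in Late SAFit2 replicates 1 to 5 and at 4.79 to 5.51 (median 5.08) in Late Vehicle. Again all 5 SAFit2 libraries were above the Vehicle mean, with overlap. The log2 fold change was 0.29 (SE 0.14, 95% CI 0.0034 to 0.57) and did not pass (limma, adjusted p = 0.14, exact permutation p = 0.0736). It passed without Late Vehicle replicate 6 (0.37, adjusted p = 0.0376), when 4971 of 16765 genes were called against 2021 with all libraries. Maoa exceeded Maob by 1.41 ± 0.18 log2 CPM (SD) in the 5 Late SAFit2 libraries and by 1.29 ± 0.14 in the 6 of Late Vehicle (exact permutation p = 0.268), so a shift in the balance of the enzymes was not detectable.

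**Figure D2:**
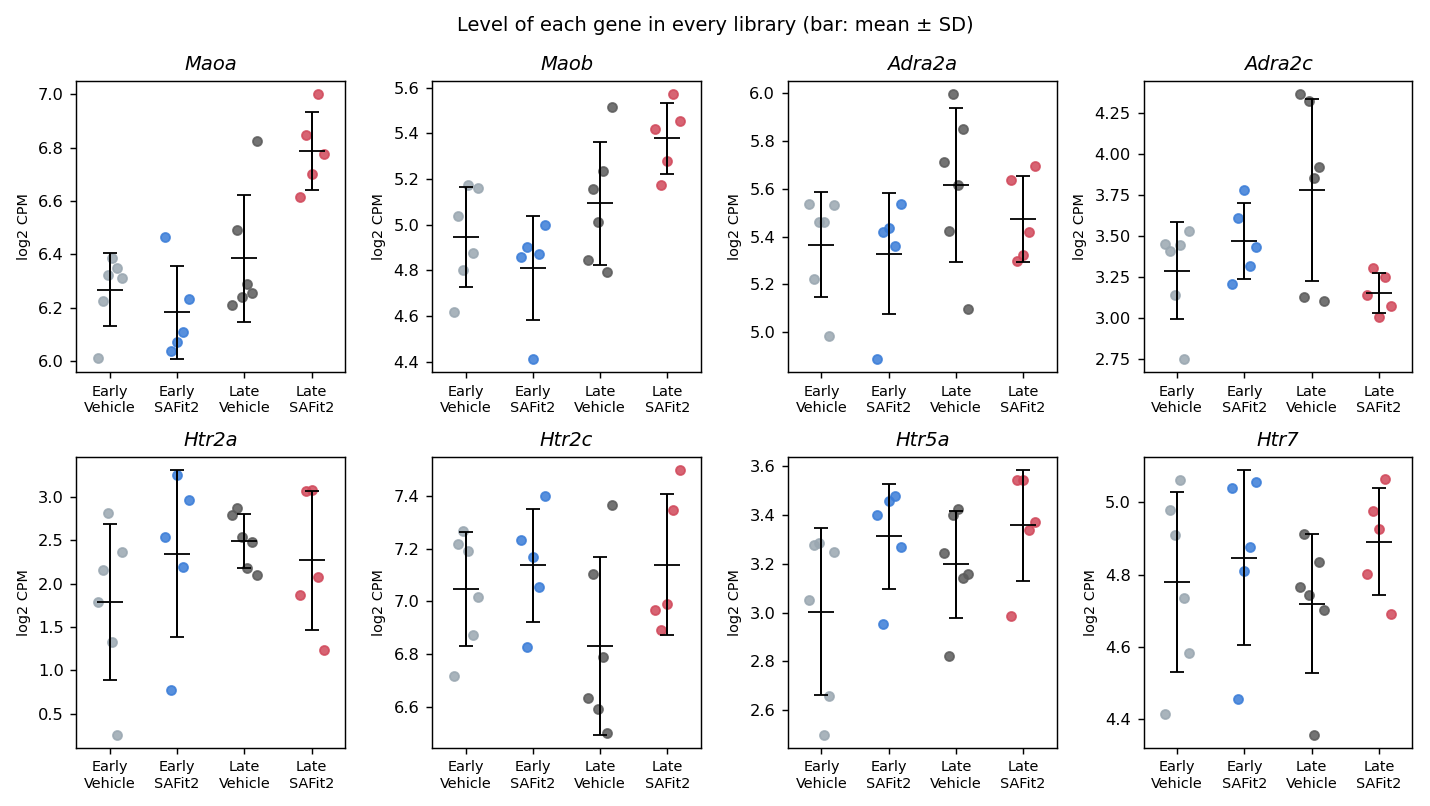
Log2 CPM of the 8 genes in each of the 22 libraries (points) by group, with mean ± SD (bars). Late SAFit2 libraries sit at 6.62 to 7.0 for Maoa against 6.21 to 6.83 in Late Vehicle, and for Adra2c at 3.01 to 3.30 against a widely spread Late Vehicle group at 3.10 to 4.36.

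Adra2c, the α2C-adrenoceptor, was at 3.14, 3.30, 3.01, 3.25 and 3.07 log2 CPM in Late SAFit2 replicates 1 to 5, a narrow range. In Late Vehicle it ranged from 3.10 to 4.36 (median 3.89). None of the SAFit2 libraries exceeded the Vehicle mean, and Late Vehicle replicates 2 (3.13) and 6 (3.10) lay within the SAFit2 range. Its log2 fold change of -0.63 (SE 0.21, 95% CI -1.06 to -0.20) narrowly missed the threshold (limma, adjusted p = 0.0501, exact permutation p = 0.0455). It passed without Late Vehicle replicate 2 (-0.76, adjusted p = 0.0161) or 6 (-0.76, adjusted p = 0.00834), when 3790 and 4971 of 16765 genes were called. With its own value unaltered, it also passed without Early Vehicle replicate 1, 4 or 5 (adjusted p between 0.0375 and 0.0499). Then 2292, 2320 and 2914 genes were called, against 2021 with all libraries. Reads were few, 74 to 479 per library. Adra2a, the α2A-adrenoceptor and the main spinal target of clonidine-like drugs, was at 5.64, 5.30, 5.32, 5.42 and 5.69 log2 CPM in Late SAFit2 and 5.10 to 5.99 (median 5.66) in Late Vehicle. The groups overlapped throughout (-0.14, 95% CI -0.44 to 0.16, adjusted p = 0.515).

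Of the serotonin receptors, Htr2c came nearest to a difference. It was at 6.97, 6.89, 6.99, 7.35 and 7.50 log2 CPM in Late SAFit2 replicates 1 to 5 and at 6.50 to 7.36 (median 6.71) in Late Vehicle, with all 5 SAFit2 libraries above the Vehicle mean. Its log2 fold change was 0.31 (SE 0.15, 95% CI 0.0016 to 0.61, limma, adjusted p = 0.143, exact permutation p = 0.139). It passed without Late Vehicle replicate 6 (0.41, adjusted p = 0.0272), when 4971 of 16765 genes were called against 2021 with all libraries. It also passed with library quality weights (0.38, adjusted p = 0.0209). There 5 of the 8 genes and 6381 of all genes were called, Maob (0.34), Adra2a (-0.32) and Adra2c (-0.90) among them. Htr7 (0.17, 95% CI -0.11 to 0.45) and Htr5a (0.16, 95% CI -0.20 to 0.52) did not differ beyond the spread between mice. Htr2a, a Gq-coupled receptor, was the most variable of the 8, from 1.24 to 3.07 log2 CPM in Late SAFit2 and 2.10 to 2.87 in Late Vehicle (18 to 187 reads per library over all groups). The interval of its difference (-0.22, 95% CI -1.08 to 0.64) spans more than a log2 unit, and its sign turned without Late SAFit2 replicate 5 (0.03).

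The late differences were set beside base composition. Across 16203 genes with a symbol and a GC content, the median log2 fold change fell in every step from 0.45 at 35 to 40% GC to -0.83 at 65 to 70% GC. Maoa (0.40), Htr2c (0.31) and Htr2a (-0.22) lie in the step of 40 to 45%, where the median was 0.30. Maob (0.29), Htr5a (0.16) and Htr7 (0.17) lie at 45 to 50%, where it was 0.08. Adra2a (-0.14) lies at 55 to 60% (median -0.44) and Adra2c (-0.63) in the highest step. The GC slope of a library, meaning how much its log2 CPM, set against the average library, changed per 10 points of GC content, was -0.295 ± 0.164 (SD) in the 5 Late SAFit2 and 0.166 ± 0.329 in the 6 Late Vehicle libraries (exact permutation p = 0.0281). Late Vehicle replicates 2 (-0.163) and 6 (-0.321), those in which Maoa was highest and Adra2c lowest, had negative slopes like all Late SAFit2 libraries. In early mice the slopes were 0.0711 ± 0.173 and 0.0203 ± 0.175 (exact permutation p = 0.619).

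**Figure D3:**
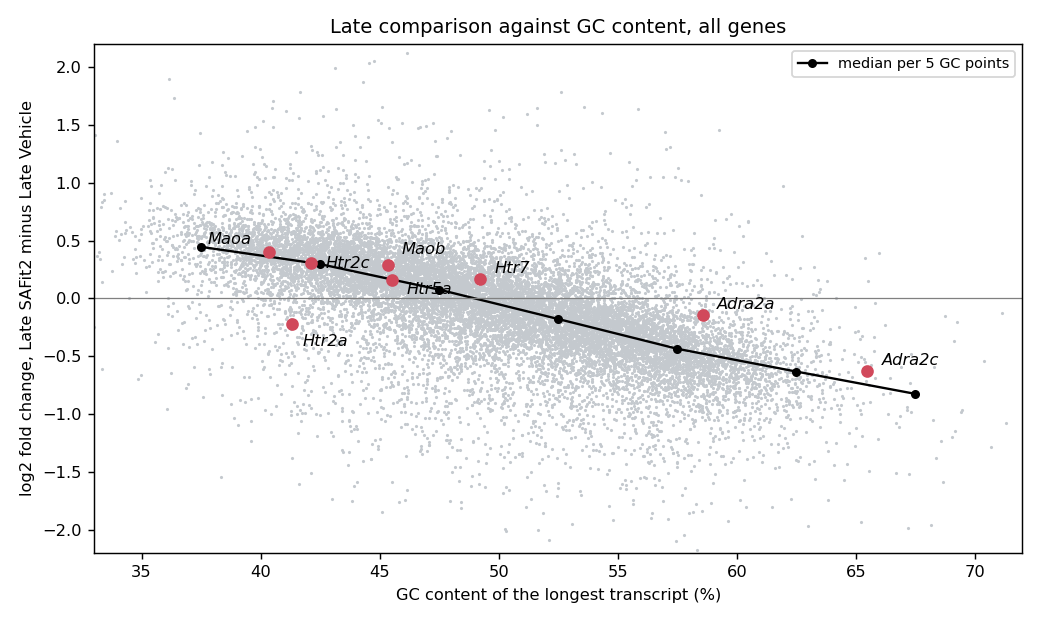
Log2 fold change of Late SAFit2 against Late Vehicle by GC content of the longest transcript (%), for all genes (grey points, 22 of 16203 beyond the axes), the 8 genes (red) and the median per 5 GC points (black line). The line falls from 0.45 to -0.83, with Maoa (0.40) and Htr2c (0.31) beside it at low GC and Adra2c (-0.63) at high GC. Htr2a (-0.22) lies below the line at low GC, and Maob (0.29) and Adra2a (-0.14) lie above it.

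Maoa followed the slope of its library closely. After removal of group means, Pearson's r over 22 libraries was -0.91 and Spearman's rho -0.92 (permutation p = 1.0e-05 for r, the smallest that 100000 permutations within groups can give, and 8.0e-05 adjusted over the 8 genes). It was -0.89 within early mice, -0.93 within late mice and -0.89 without the 2 libraries of most extreme slope. The GC-rich receptors went the opposite way, with r of 0.80 (rho 0.70) for Adra2c and 0.77 (rho 0.66) for Adra2a, and Htr2c went with Maoa (r -0.76, rho -0.72). Adjusted permutation p was 0.00164, 0.00112 and 0.00157 for r and 0.00544, 0.00858 and 0.00508 for rho, and without the 2 extreme libraries r was 0.67, 0.68 and -0.64. Maob passed by r alone (-0.58, adjusted permutation p = 0.0254, rho -0.48 at 0.062, r -0.45 without the 2 libraries). For Htr7 (r -0.38), Htr5a (0.18) and Htr2a (0.09) the adjusted permutation p of r was 0.121 or more. The slope is computed from the same libraries as the levels, so these are not independent measurements.

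**Figure D4:**
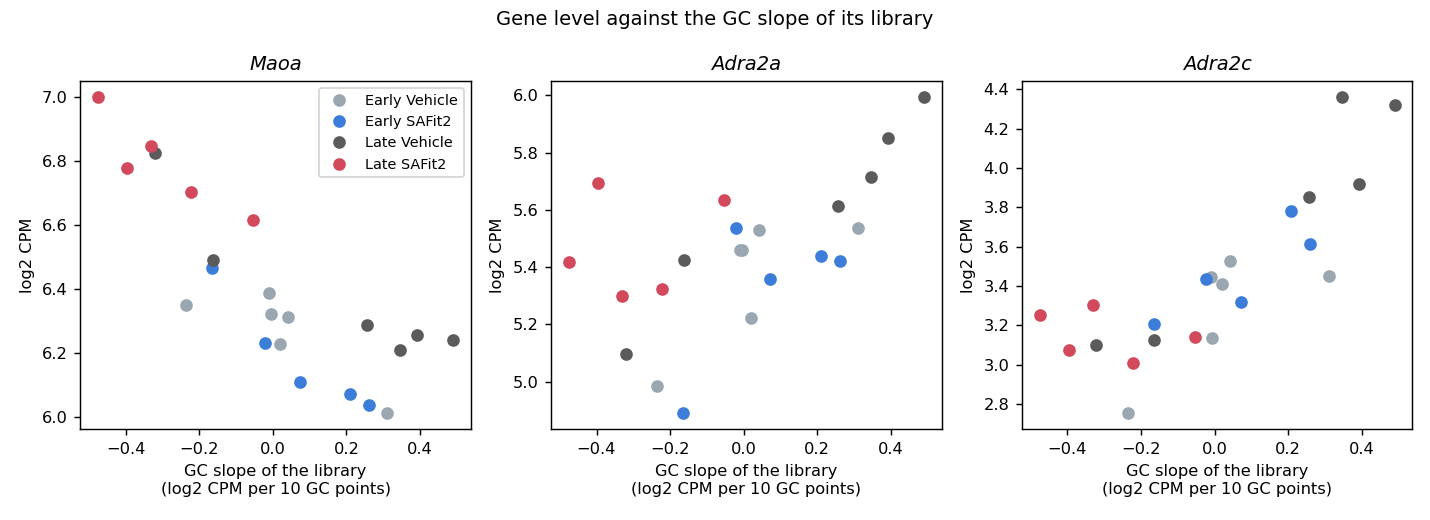
Log2 CPM of Maoa, Adra2a and Adra2c in each of the 22 libraries against the GC slope of that library (log2 CPM per 10 GC points), coloured by group. Maoa falls with the slope (group-centred r -0.91), whereas Adra2a (0.77) and Adra2c (0.80) rise with it. For Adra2c the negative Late Vehicle replicates 2 and 6 lie among the Late SAFit2 libraries. For Maoa replicate 6 (6.83) does so, while replicate 2 (6.49) lies below all of them.

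With the GC and length trend of each library removed, a step that also takes away any treatment effect that follows GC content, the late difference of Maoa was -0.01 (95% CI -0.14 to 0.13, limma, adjusted p = 0.968, exact permutation p = 0.89). Maob was then at 0.07 (95% CI -0.15 to 0.29) and Htr2c at -0.03 (95% CI -0.23 to 0.16). Adra2c turned from -0.63 to 0.15 (95% CI -0.16 to 0.46). Adra2a turned from -0.14 to 0.33 (95% CI 0.12 to 0.54, exact permutation p = 0.00649), without passing the adjustment over all genes (limma, adjusted p = 0.134). On this scale 0 of the 8 genes and 0 of the 16213 genes with a GC content were called (limma), with 2533 of the latter at a nominal p under 0.05.

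**Figure D5:**
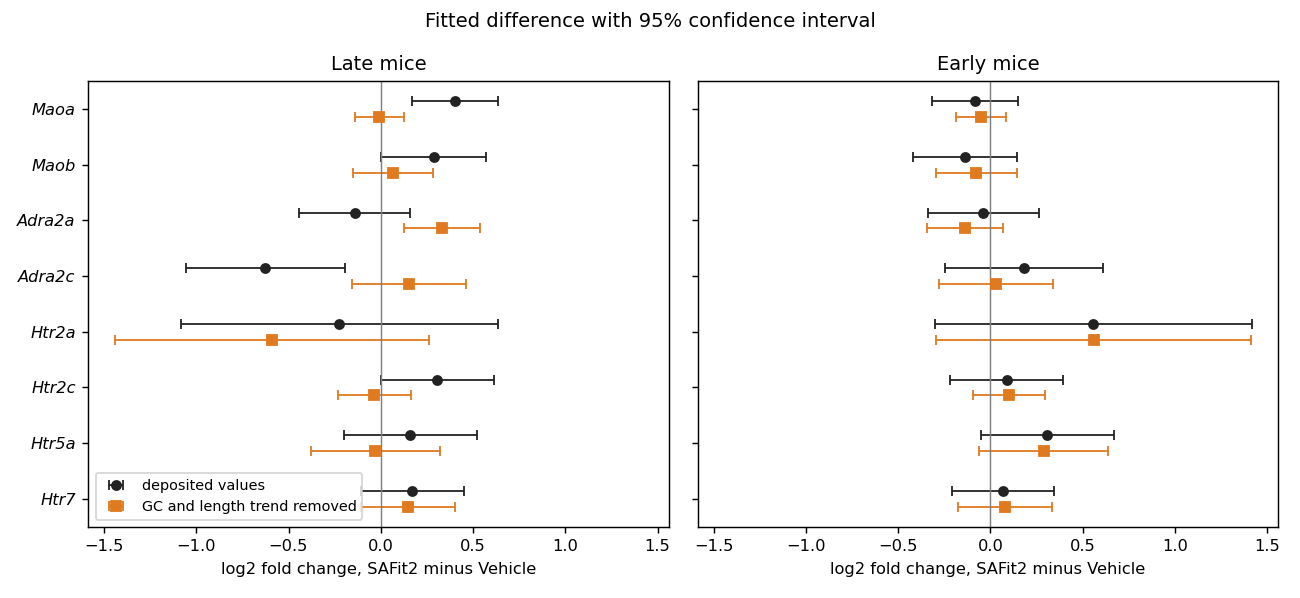
Log2 fold change of SAFit2 against Vehicle with its 95% confidence interval in late (left) and early mice (right), from the deposited values (black circles) and with the GC and length trend removed (orange squares). In late mice Maoa moves from 0.40 to -0.01, Adra2c from -0.63 to 0.15 and Adra2a from -0.14 to 0.33, and in early mice every interval includes 0 on both scales.

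In early mice, where SAFit2 was given around the onset of joint pain, none of the 8 genes passed the test, nor did any of the genes tested (percent called 0). No member had a nominal p under 0.05, as 2.48% of all genes tested did (416 of 16765, limma). Log2 fold changes were -0.09 for Maoa (95% CI -0.32 to 0.15), -0.14 for Maob (-0.42 to 0.15), -0.04 for Adra2a (-0.34 to 0.26) and 0.18 for Adra2c (-0.25 to 0.61). Among serotonin receptors they were 0.56 for Htr2a (-0.30 to 1.42), 0.09 for Htr2c (-0.22 to 0.40), 0.31 for Htr5a (-0.05 to 0.67) and 0.07 for Htr7 (-0.21 to 0.34). All adjusted p were 1.00 and all groups overlapped, as they did for all but 0.352% of genes. The widest interval, that of Htr2a, came from values of 0.77 to 3.25 log2 CPM in Early SAFit2 and 0.26 to 2.81 in Early Vehicle. The sign of Adra2a turned without Early SAFit2 replicate 1 (0.07), and that of Htr7 without Early Vehicle replicate 1 (-0.01).

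Whether the effect of SAFit2 differed between early and late mice was tested directly. The early effect minus the late effect was -0.49 for Maoa (SE 0.16, adjusted p = 0.12), -0.42 for Maob (SE 0.19, adjusted p = 0.18) and 0.81 for Adra2c (SE 0.30, adjusted p = 0.125). These 3 of 8 genes were below a nominal p of 0.05 (0.0051, 0.0393 and 0.0112 by limma), as were 24.9% of all genes, and none passed the adjustment, as no gene tested did (percent called 0). Without Late Vehicle replicate 6 the differences of Maoa (-0.58, adjusted p = 0.0228) and Adra2c (0.94, adjusted p = 0.0298) passed, when 2513 of 16765 genes were called. With the GC and length trend removed the differences were -0.04 for Maoa (limma, adjusted p = 0.877), -0.14 for Maob (adjusted p = 0.708) and -0.12 for Adra2c (adjusted p = 0.841), the last with its sign turned, while that of Adra2a went from 0.10 to -0.47 (adjusted p = 0.294). Averaged over both timings, no gene of the 8 was called or below a nominal p of 0.05 (13.2% of all genes were below it).

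Between timings, levels of the monoamine oxidases were higher in late than in early SAFit2 mice, while timing and batch cannot be told apart. Maoa was at 6.62 to 7.0 log2 CPM in the 5 Late and 6.04 to 6.47 in the 5 Early SAFit2 libraries, and Maob at 5.17 to 5.57 and 4.41 to 5.0. Neither gene's groups overlapped, as was the case for 14.5% of all genes in this comparison. The log2 fold change was 0.61 for Maoa (SE 0.12, limma, adjusted p = 0.00125) and 0.57 for Maob (SE 0.14, adjusted p = 0.00775), and these were the 2 of 8 genes called (20.5% of all genes were called, 9.2% as higher, and 35.6% had a nominal p under 0.05 by limma). Between Vehicle groups, where 0 of 8 genes and 9.11% of all genes were called (3.29% as higher), the differences were 0.12 for Maoa (adjusted p = 0.546) and 0.15 for Maob (adjusted p = 0.529). Adra2c was at 0.49 there (adjusted p = 0.121), the 1 of the 8 below a nominal p of 0.05 by limma (24.3% of all genes were). It passed without Late Vehicle replicate 2 (0.62, adjusted p = 0.0438) or 6 (0.63, adjusted p = 0.0285). Then 1531 and 2482 of 16765 genes were called, against 1527 with all libraries. The Vehicle groups overlapped for both enzymes, while 4.92% of all genes had Vehicle groups that did not overlap. Both comparisons share libraries with those within a timing. Between SAFit2 groups, 3 of 5 astrocyte, 2 of 4 microglia, 2 of 3 ependyma and 1 of 4 oligodendrocyte markers were called higher in late mice, and 0 lower. The median log2 fold change was 0.49, 0.33, 2.62 and 0.24 in these lists. Summed astrocyte markers were at 2158 to 2824 CPM in Late and 1542 to 2085 in Early SAFit2 libraries, microglia markers at 156 to 193 and 125 to 151. Of neuronal markers 1 of 5 was called higher. Between Vehicle groups 1 astrocyte and 0 microglia, ependyma or oligodendrocyte markers were called. Their part in the levels of the enzymes was not tested.

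With the GC and length trend removed, Maoa was still called between SAFit2 groups (0.29, limma, adjusted p = 0.00459), as was Maob (0.36, adjusted p = 0.0258), beside 15.6% of all genes. Adra2a became the third gene called there (0.60, adjusted p = 0.000336, against 0.15 and adjusted p = 0.523 before). Between Vehicle groups Maoa was then at 0.25 (adjusted p = 0.00728), a difference below the 1.2-fold limit of a call, and Maob at 0.22 (adjusted p = 0.146).

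Members were also compared with one another across mice of a group. Of the 28 pairs, 7 had a Pearson's r over the 22 group-centred libraries that passed Benjamini-Hochberg adjustment, none of which passed by Spearman's rho as well. Maoa went with Htr2c (r 0.73, rho 0.67, adjusted permutation p = 0.0228 for r and 0.051 for rho) and with Maob (r 0.63, rho 0.54, 0.0318 and 0.0639). It went against Adra2a (r -0.71, rho -0.62, 0.0228 and 0.051) and Adra2c (r -0.63, rho -0.58, 0.0318 and 0.051). Without the 2 libraries farthest from the median of the first gene, r was 0.66, 0.53, -0.45 and -0.45 in these 4 pairs. The other 3 pairs were Adra2a with Adra2c (r 0.72), Maob with Htr2c (0.62) and Htr2a with Htr5a (0.61). With the GC and length trend removed, 0 of 28 pairs passed by r, and r between Maoa and Maob was 0.29 (permutation p = 0.228, 0.579 adjusted).

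Over the 22 libraries, the genes most like each member in log2 CPM had a base composition near its own in several cases. For Maoa these were Rab10 (r 0.95), Gpm6b (0.95) and Tmem47 (0.95), with 37.4 to 44.5% GC. For Adra2c they were Lrrc4b, Ehd1 and Dlgap3 (all r 0.90), with 58.6 to 63.9% GC. Adra2a was most like Gnai2 (0.87), an inhibitory G protein subunit to which its receptor can couple, Ngef (0.86) and Mfge8 (0.86), with 55.4 to 56.7% GC. Maob was most like Eif2a (0.88), Ywhae (0.87) and Lgi1 (0.87), and Htr2c most like Slc4a10 (0.93), Crebrf (0.89) and Zfp644 (0.89). Htr2a was most like Klhl11 (0.95), Sv2c (0.94) and Sgtb (0.94), Htr5a most like Mcm9, Appbp2 (both 0.78) and Megf9 (0.77), and Htr7 most like Larp4b (0.80), Rbpj (0.77) and Golt1b (0.75). These are the highest of all genes tested and are given as a description.

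Of 78 further genes of monoamine synthesis, transport, breakdown, reception and signalling, 69 were tested. In late mice 3 were higher and 1 lower with SAFit2 (5.80% called, against 12.1% of all genes), with a median log2 fold change of -0.14. The higher ones belonged to receptor signalling. They were Plcb1, the phospholipase activated by Gq-coupled receptors such as Htr2a and Htr2c (0.46, limma, adjusted p = 0.034), Gnai1, an inhibitory G protein subunit (0.40, adjusted p = 0.0377), and Gnai3 (0.44, adjusted p = 0.0363), the last named after its values were seen. All 3 have less than 45% GC, and with the GC and length trend removed they were at 0.23, 0.07 and 0.08. The lower one was Gch1, the first enzyme of synthesis of tetrahydrobiopterin, the cofactor of tyrosine and tryptophan hydroxylases. It was at -0.64 ± 0.70 log2 CPM (SD) in the 5 Late SAFit2 libraries and at 0.47 ± 0.37 in the 6 of Late Vehicle (-1.11, SE 0.36, adjusted p = 0.046), and at -1.29 (adjusted p = 0.119) with the trend removed. Levels this near the filter limit of -1 log2 CPM come from few reads. None of the 7 further adrenoceptors, 8 further serotonin receptors, 3 dopamine receptors, 10 further breakdown enzymes, 5 transporters or 8 factors known to act on monoamine oxidase promoters was called.

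In early mice 0 of the 69 genes were called. Between Vehicle groups 7 were called (10.1%, against 9.11% of all genes). Of these, 5 were higher in late mice, Qdpr (0.45), the transporter gene Slc29a4 (0.77), Adra1b (0.73), Adra1d (0.91) and Gnai2 (0.40), and 2 were lower, Kcnj9 (-0.55), a channel subunit opened by Gi-coupled receptors, and Adcy1 (-0.49), an adenylate cyclase. Between SAFit2 groups 6 were higher and 3 lower (13.0% called, against 20.5% of all genes). The higher ones included Aldh1a1, an aldehyde dehydrogenase that acts after monoamine oxidase (0.74, limma, adjusted p = 0.00211), Htr1a (0.47, adjusted p = 0.0427), Nr3c1, the glucocorticoid receptor (0.34, adjusted p = 0.0499), and Gnai1 (0.49, adjusted p = 0.00691). Kcnj9 (-0.94), Adcy1 (-0.67) and Gch1 (-1.47, again from few reads) were the lower ones. Kcnj9 and Adcy1 were thus called lower in late mice in both comparisons across timings. These do not share libraries, but both follow the same split by timing and batch, which cannot be told apart.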

How the data were processed

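RNA sequencing of 22 libraries was analysed, grouped by their labels. Per the labels and methods, directional mRNA libraries (NEBNext Ultra II) were sequenced as 75 bp pairs, trimmed with Trimmomatic, aligned to mm10 with HISAT2 and counted with featureCounts, and the authors used edgeR for scaling by trimmed mean of M-values. No versions were given in the sources used here. The values deposited by the authors are log2 CPM with a small prior count (floor -3.15 at 0 reads). The methods mention limma voom on TPM, so the test was chosen for log2 CPM instead. Reads worked back from the values were whole in 100% of cases (tolerance 0.02 reads) and served for depth, 11352989 to 24433349 per library. Among the members, few reads limit Htr2a, Htr5a and Adra2c most, and of the further genes called they limit Gch1.

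limma 3.58.1 (R 4.3.3) was fitted to the 16765 genes that reached -1 on the log2 scale in 5 or more libraries, with 1 mean per group, a variance trend and Benjamini-Hochberg adjustment. A call required an adjusted p under 0.05 and 1.2-fold. Each library is 1 mouse, and cage or litter is not given in the sources used here. Single genes were tested by two-sided exact permutation, and correlations by permutation within groups. GC content and length came from GENCODE M21, and their trend was removed per library by loess (span 0.5) for 16213 genes. The fit was checked on simulated counts with a fixed dispersion and no GC trend, so the check does not cover libraries that differ in GC slope. Tables were made in Python 3.11.15 with pandas 2.3.3, numpy 2.4.6 and scipy 1.17.1, plots with matplotlib 3.10.9.

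The members and lists were chosen with earlier results of these data known. Named are the 8 members, called genes of the list (in a class with more than 4, the 2 of lowest p per direction, and others where a count of 5 or fewer needed it), the 3 most alike genes per member, and marker checks. Alternatives were other filters, pseudocounts, variance models, scalings, GC and length correction, the replicate block, 2 groups alone and each library left out. The genes with a GC value, uncorrected, were added after the data were seen. Dbh, Pnmt, Tph1, Slc6a2, Slc6a4, Htr2b, Drd3, Drd4 and Xist were not analysed here, and Htr3b was below the filter. The values of 1 further gene of the list are not reported here. Replicate numbers did not pair the mice (correlation of deviations -0.236 to 0.317, over 0.1 in 2 of 10 pairs).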

Additional observations from a re-analysis of the deposited data

Results flagged for a closer look

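Within groups of 5 or 6 libraries, 2 of 32 combinations of gene and group held a library far from the others (Dixon's test), about what chance gives at 1 in 20. Both were the lowest of the 5 Early SAFit2 libraries. Maob was at 4.41 log2 CPM in replicate 3, with a gap of 0.762 of the group's range to the next, and Adra2a at 4.89 in replicate 1, with a gap of 0.728.

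The effect of SAFit2 differed in sign between early and late mice for 3 genes at a nominal p under 0.05 (limma), none of which passed the adjustment over all genes. Of all genes tested, 24.9% were below that p. The early minus late difference was -0.49 for Maoa, -0.42 for Maob and 0.81 for Adra2c. With the GC and length trend removed it was -0.04, -0.14 and -0.12, and the early and late effects had the same sign for Maoa (-0.05 and -0.01) and Adra2c (0.03 and 0.15) but not for Maob (-0.08 and 0.07).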

How the results depend on the processing

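In late mice the number of the 8 genes called was 0 to 4 with a library left out, 2 with a stricter filter, without Bc1 and mitochondrial genes in the library sizes, with the replicate block, or on the genes with a GC value, 5 with library quality weights, and 0 without a variance trend, with the 2 groups alone, or with the GC and length trend removed (with or without the block). The genes called in all, 2021, became 62 without a variance trend, 6381 with quality weights, 876 with voom, 1231 with quantile normalization, 0 with the trend removed, 117 with trend removal and replicate block, 4219 with the replicate block, 0 with the 2 groups alone (5245 at a nominal p under 0.05), and 1 to 4971 with a library left out, being 1 without Late SAFit2 replicate 2 or 5 or Late Vehicle replicate 1, 3, 4 or 5, and 8 without Late SAFit2 replicate 4. The cause was not tested. Quality weights also gave 13 early genes, for the mean effect 1 member, 2844 genes and 6396 at a nominal p (against 2215, and 1242 or 1260 with the trend removed, without or with the block), for the early minus late effect 3 members and 5082 genes, and between timings 3 members and 5067 genes in Vehicle and 5162 genes in SAFit2 mice. For the early minus late effect the replicate block gave 1 member and 1785 genes and the fit without a trend 2 genes. Between Vehicle groups 2550 genes were called with the trend removed, against 1527. Left-out libraries gave 0 to 2 members and 0 to 2513 genes for the early minus late effect, 0 to 2 genes and 1313 to 3780 at a nominal p for the mean effect, 0 to 1 member and 944 to 2482 genes between Vehicle groups, and 2201 to 3957 genes between SAFit2 groups.

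Signs turned in these cases. With the GC and length trend removed, late Maoa was -0.0084, Adra2a 0.33, Adra2c 0.15, Htr2c -0.034 and Htr5a -0.030, and with the replicate block added Maoa -0.0057, Adra2a 0.33, Adra2c 0.19 and Htr5a -0.074. The early minus late difference was then -0.47 for Adra2a, -0.12 for Adra2c and 0.13 for Htr2c, and with the block -0.45, -0.12 and 0.093. Adra2c between SAFit2 groups became 0.35. Late Htr2a was 0.062 with quality weights. The r of Maoa and Maob kept its sign but fell from 0.63 to 0.29 with the trend removed. With a library left out, late Htr2a ranged from -0.43 to 0.033, early Adra2a from -0.11 to 0.072 and early Htr7 from -0.0061 to 0.16.

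Replicate numbers did not pair the mice, and no block can be fitted between timings. Of the late calls 894 were higher and 1127 lower, against 1139 and 924 with median centring. Between SAFit2 groups 1543 higher and 1894 lower became 2590 and 1321 with median centring and 790 and 3102 without Bc1 and mitochondrial genes, as the median of all genes moved from -0.07 to 0.06 and -0.19. Between Vehicle groups 552 and 975 became 1198 and 816, and 144 and 1615.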
